A study of Mus musculus with 6 samples.

Results

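The genes described here are 10 regulators of the multiciliated cell program: *Foxj1*, *Mcidas*, *Gmnc*, *Ccno*, *Myb*, *Trp73*, *Rfx2*, *Rfx3*, *E2f4* and *Cdc20b*. They were chosen by name, not by a measured value, though with earlier results of these data known. All 10 were found among the 20483 genes of the count table. Tracheal epithelial cells of C57BL/6 mice aged 12 weeks were grown as primary cultures at an air-liquid interface and profiled by single-cell RNA-Seq with a 10x Genomics kit that reads the 3′ end of transcripts, 1 library per mouse. The groups were 3 WT mice (*WT/WT*) and 3 mice labelled DNAAF5 Mutant, which the study's text gives as littermates homozygous for a missense allele of *Dnaaf5* (*MIS/MIS*). *Dnaaf5* encodes a factor that helps to assemble dynein arms, the motors of motile cilia, in the cytoplasm. The allele was made by CRISPR-Cas9 editing of C57BL/6 embryos and is carried by every cell of the mouse, so a difference between the cultures can arise in any cell type.

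A multiciliated cell forms from a basal or secretory progenitor that leaves Notch signalling behind. Geminin-family coactivators (*Gmnc*, then *Mcidas*) work with the E2F factors *E2f4* and *E2f5* to turn on the genes that build centrioles in bulk around deuterosomes, and *Ccno* and *Cdc20b* act at that stage. *Myb* is active early in the same program, *Trp73* acts near its top, and *Foxj1* with the RFX factors drives the genes of the motile cilium itself, which mature cells go on expressing.

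The study's annotation divided 23871 cells into 16 clusters, of which Multiciliated1 (1108 cells), Multiciliated2 (857), Multiciliated3 (2712) and Multiciliated4 (146) made up 4823 multiciliated cells. The mice gave 2673 to 6710 cells each, the lower of these under the captured numbers in the methods, with a median of 21328 to 35383 unique molecular identifiers (UMIs, the counted transcript molecules) per cell. All 5 markers of multiciliated cells (*Dnah5*, *Tekt1*, *Rsph1*, *Tppp3* and *Dynlrb2*) were highest in these clusters. Multiciliated1 also held secretory markers, with *Reg3g* at 25460 CPM (UMI counts scaled to the same total in each sum of cells), against 38632 CPM in Secretory1. *Scgb3a2* was at 1637 CPM in Multiciliated1 and 13504 CPM in Secretory1, *Scgb1a1* at 115 and 728 CPM, and *Muc5b* at 2.13 and 2.53 CPM. *Bpifa1*, at 945 CPM in Multiciliated1, was lower than in Multiciliated2 (2503 CPM). Multiciliated4 was shallow, at a median of 10197 UMIs per cell. *Dnaaf5*, the edited gene, stood at 42.1, 38.2 and 49.4 CPM in the multiciliated cells of the 3 *WT/WT* cultures and at 54.8, 54.9 and 49.3 CPM in the *MIS/MIS* cultures (log2 fold change 0.28 ± 0.11, SE, adjusted p = 0.896 by limma). A level cannot check a missense change. A total of 67 cell barcodes of 23804 occurred in more than 1 library, and 655 cells had more than 7500 genes although the methods state a limit at that number.

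Levels of the regulators below are CPM over the summed cells of a cluster, given per mouse with at least 10 cells of the cluster. Cluster levels of other genes not given by mouse or genotype, in the correlations too, are CPM over the cells of all mice summed together. Mice with more cells weigh more in them: MT1383 gave 342 of the 857 Multiciliated2 and 1186 of the 2712 Multiciliated3 cells. The clusters were defined from these same genes, so the levels by cluster are a description with no test. Levels are compared between clusters and mice, not between genes.

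**Figure D1:**
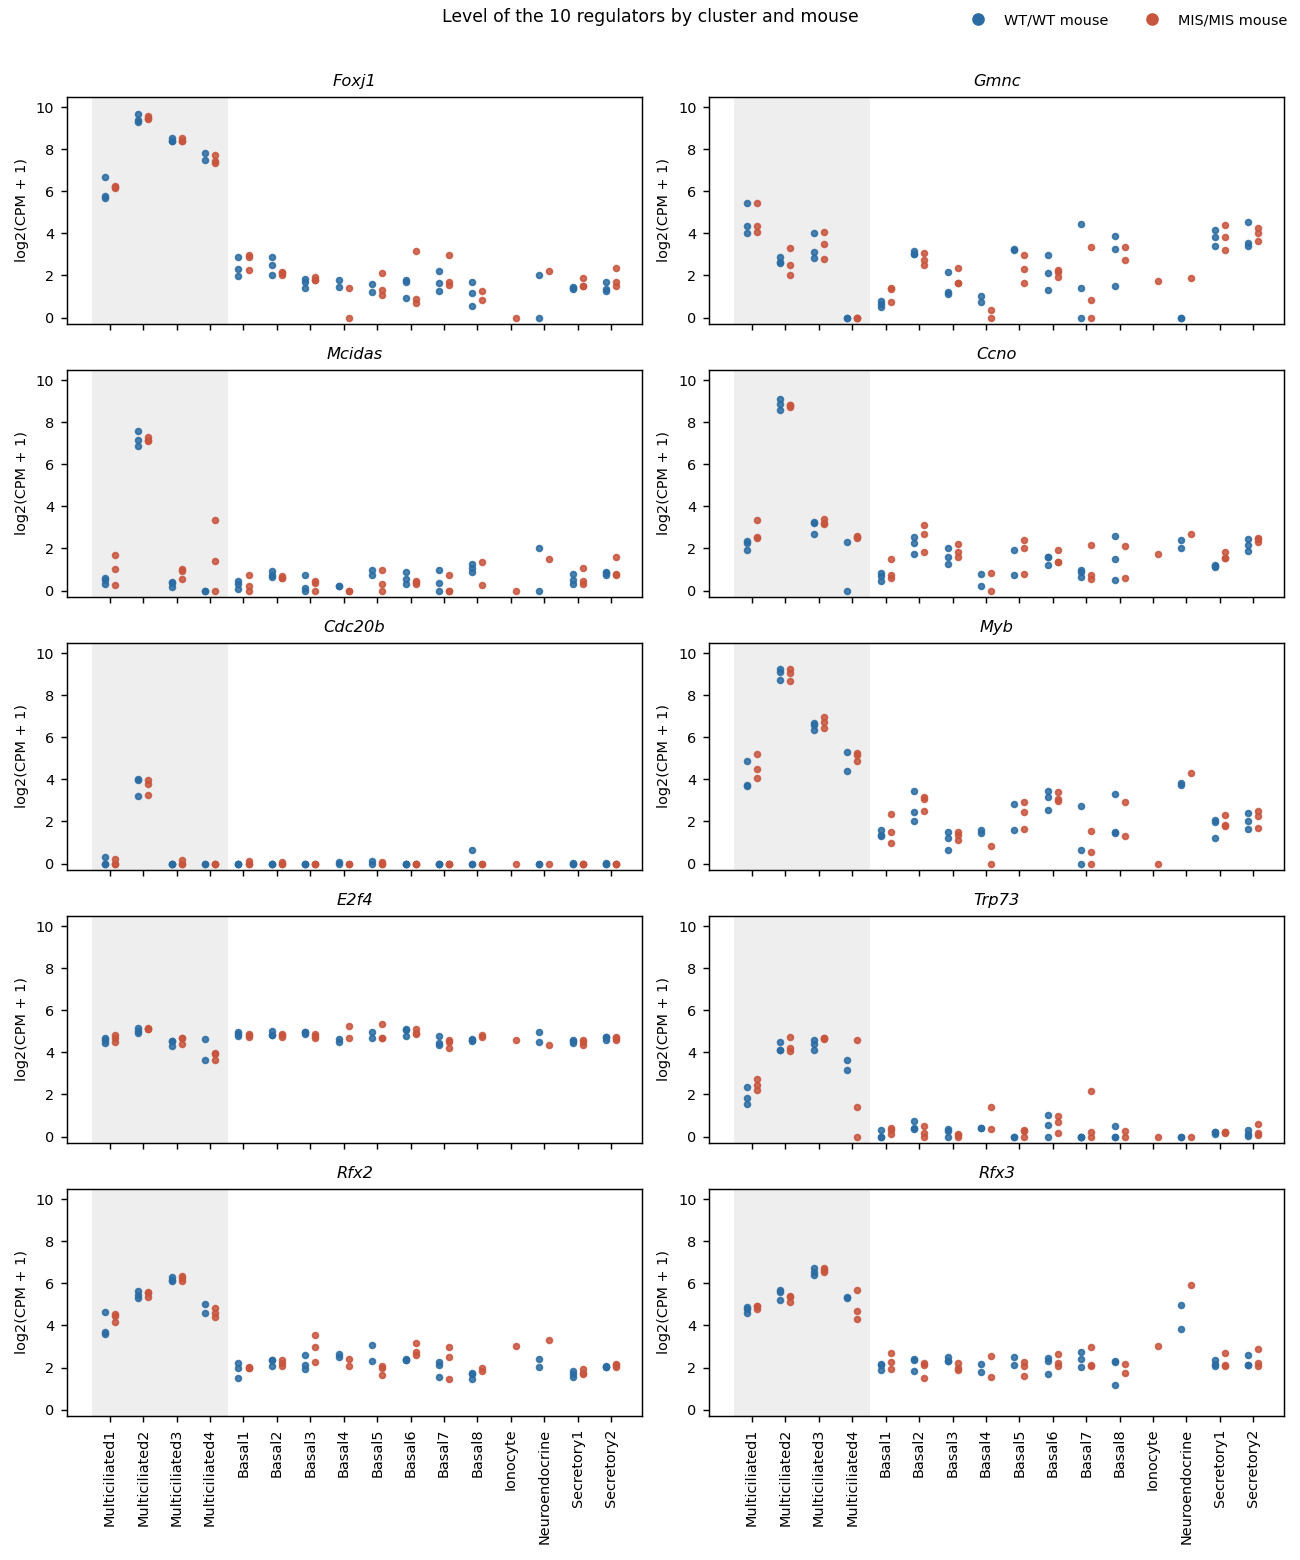
Level of each regulator, as log2(CPM + 1), in each cluster, with 1 point per mouse that had at least 10 cells (blue *WT/WT*, red *MIS/MIS*); the grey band marks the 4 multiciliated clusters. *Mcidas*, *Ccno* and *Cdc20b* stand high in Multiciliated2 alone, *Foxj1*, *Myb*, *Trp73*, *Rfx2* and *Rfx3* rise over several multiciliated clusters, *E2f4* is present in every cluster, and *Gmnc* is also present in secretory clusters.

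*Foxj1*, the forkhead factor that drives motile cilium genes, was highest in Multiciliated2, where the 6 mice ranged from 627 to 822 CPM (mean 717 ± 68.7, SD, n = 6). In Multiciliated3 the mice ranged from 333 to 367 CPM, in Multiciliated4 from 159 to 226 CPM over 5 mice, and in Multiciliated1 from 50.9 to 101 CPM. None of these ranges overlapped, and Multiciliated2 was the highest of the 4 in 6 of 6 mice. Outside the multiciliated clusters the level averaged 2.58 CPM, so 97.2% of all *Foxj1* UMIs lay in multiciliated cells. With every cell thinned to 5000 UMIs, *Foxj1* was found in 86.6% of Multiciliated2 cells and 23.4% of Multiciliated1 cells, against 1.49% of basal cells, which should lack it. Without thinning the shares were 95.3%, 53.6% and 7.02%, at a median of 38781, 32469 and 26312 UMIs per cell.

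*Mcidas*, *Ccno* and *Cdc20b* lie side by side on chromosome 13 and shared 1 pattern across the clusters. In GENCODE M21 (GRCm38), *Ccno*, which encodes cyclin O, spans chr13:112987802-112990777. *Mcidas*, encoding multicilin, spans chr13:112993845-113000394, with 3067 bases between the genes, and *Cdc20b*, a relative of the mitotic regulator *Cdc20*, spans chr13:113035111-113091195. All 3 are on the plus strand, within 103 kb. The 250 bases upstream of each RefSeq start are shown because Multiciliated2 held a larger share of the UMIs of these neighbours than of any other of the 10 genes. The *Cdc20b* window lies within the GENCODE span given above and the *Mcidas* window runs past its GENCODE start, since RefSeq places both starts further downstream. They are RefSeq windows on GRCm38.p6, 5′ to 3′ on the plus strand, at chr13:112987552-112987801, chr13:112993618-112993867 and chr13:113035129-113035378 in the order printed, and capitals mark motif matches.
Ccno promoter: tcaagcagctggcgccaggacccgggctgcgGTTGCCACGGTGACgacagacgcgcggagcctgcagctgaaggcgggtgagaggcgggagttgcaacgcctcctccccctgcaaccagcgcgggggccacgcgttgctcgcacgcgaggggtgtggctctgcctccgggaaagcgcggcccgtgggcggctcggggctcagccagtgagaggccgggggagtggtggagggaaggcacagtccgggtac
Mcidas promoter: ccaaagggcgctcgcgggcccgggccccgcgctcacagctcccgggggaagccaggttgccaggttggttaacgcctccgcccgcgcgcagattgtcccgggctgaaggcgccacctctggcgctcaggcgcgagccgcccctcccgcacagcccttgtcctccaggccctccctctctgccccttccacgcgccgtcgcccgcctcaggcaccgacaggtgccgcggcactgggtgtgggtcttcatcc
Cdc20b promoter: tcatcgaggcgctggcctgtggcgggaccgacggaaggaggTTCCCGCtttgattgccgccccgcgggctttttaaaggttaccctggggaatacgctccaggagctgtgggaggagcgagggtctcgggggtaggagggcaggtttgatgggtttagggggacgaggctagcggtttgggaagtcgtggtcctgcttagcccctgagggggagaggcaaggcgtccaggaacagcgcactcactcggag
The capitals in the *Ccno* window match the arms of the X-box bound by RFX factors (GTNNCC and GGNAAC, 0 to 3 bases apart, both strands), which occurred in 2.34% of 32851 promoter windows that reach from 250 bases before a start to 50 bases after it. Those in the *Cdc20b* window match the E2F motif TTCCCGC, present in 4.60% of the windows. No match of these motifs, of the E2F variant TTGGCGC (2.45%), of the forkhead motif TGTTTAC (3.65%) or of the MYB motif CAACTG (13.7%) was found in the *Mcidas* window. Windows were found for 8 of the 10 genes, all but *Foxj1* and *E2f4*, and a match describes letters, not binding.

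*Ccno* ranged from 380 to 550 CPM in Multiciliated2 (mean 451 ± 56.7, SD, n = 6), while the next cluster, Multiciliated3, reached no more than 9.52 CPM. *Mcidas* ranged from 114 to 194 CPM in Multiciliated2 (147 ± 26.6) and averaged 0.52 CPM in Multiciliated3. Its next cluster was Multiciliated4, at a mean of 2.19 CPM and at most 9.35 CPM over 5 mice, with 3 UMIs in all. *Cdc20b* ranged from 8.22 to 15.01 CPM in Multiciliated2 (12.3 ± 3.10). For each of the 3, Multiciliated2 stood apart from the other multiciliated clusters in 6 of 6 mice. Those other clusters overlapped each other, with 1 exception. *Ccno* in Multiciliated3 (5.46 to 9.52 CPM) stayed above Multiciliated4 (0 to 4.98 CPM over 5 mice, with 6 UMIs in all). Multiciliated2, with 857 of the 23871 cells, held 87.4% of all *Ccno* UMIs, 92.3% of all *Mcidas* UMIs and 96.3% of the 434 *Cdc20b* UMIs. In thinned cells, a UMI of *Ccno* was found in 78.6%, of *Mcidas* in 49.4% and of *Cdc20b* in 6.42% of Multiciliated2 cells, against 0.98%, 0.26% and 0.01% of basal cells. Unthinned, the shares in Multiciliated2 were 96.2%, 89.7% and 34.8%, against 4.46%, 1.08% and 0.06% of basal cells, so few cells lacked *Mcidas* once depth was used in full. In Multiciliated4, 0 of 146 cells held a *Cdc20b* UMI, which allows up to 2.05% of cells with a UMI. At the median of 10197 UMIs there, this does not limit the share of cells that express the gene.

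The genes around them had other distributions. Of 10 protein-coding genes within 200 kb of the 3 genes, themselves included, 9 were in the table. *Dhx29*, an RNA helicase gene upstream of *Ccno*, was at 30.1 CPM in Multiciliated2 and 29.8 CPM in Multiciliated3. *Mtrex*, another helicase gene, was at 74.5 and 52.3 CPM. *Gpx8*, which lies on the minus strand within *Cdc20b* and encodes a glutathione peroxidase, went the other way, at 16.3 CPM in Multiciliated2 and 108 CPM in Multiciliated3. *Esm1* was sparse, with 209 UMIs in all, of which 95.7% were in multiciliated cells but only 43.5% in Multiciliated2. *Cdc20b* also hosts the miR-449 genes on its own strand, and the mature sequences are given because they mark the locus, although a poly-A based 3′ library does not measure mature miRNAs.
mmu-miR-449c-5p: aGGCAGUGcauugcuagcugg
mmu-miR-449a-5p: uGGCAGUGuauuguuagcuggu
The capitals mark bases 2 to 8, the seed, which was GGCAGUG in both. They lie at chr13:113036008-113036028 and chr13:113037549-113037570 on the plus strand (RefSeq, GRCm38.p6).

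Within Multiciliated2, detection of *Mcidas* went with detection of some other genes. A thinned cell without a *Mcidas* UMI need not lack the gene, since 89.7% of these cells held one unthinned. Among thinned Multiciliated2 cells, *Ccno* was found in 87.2% of the 423 cells with a *Mcidas* UMI and 70.3% of the 434 cells without one, and the first share was the higher in 6 of 6 mice. *Myb* (89.1% against 76.5%), *Foxj1* (91.7% against 81.6%) and the deuterosome gene *Deup1* (71.2% against 61.5%) showed the same order, also in 6 of 6 mice. The axonemal dynein gene *Dnah5* did not, at 41.8% against 41.5%, and the first share was the higher in 3 of 6 mice. For *Rfx3* (19.6% against 17.7%) the first share was the higher in 5 of 6 mice, and for *Top2a* (48.9% against 43.8%) in 4 of 6. *Gmnc* was rare, in 2.13% of cells with and 4.84% of cells without a *Mcidas* UMI. These shares compare cells of the same libraries, are descriptions, and carry no test.

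*Gmnc*, which encodes GEMC1 and stands upstream of *Mcidas*, had another distribution. It was highest in Multiciliated1, from 15.3 to 43.2 CPM, but its next cluster was Secretory2, at 14.6 CPM, ahead of Multiciliated3 at 10.2 CPM. Multiciliated2, the cluster with the most *Mcidas*, had 5.52 ± 1.92 CPM of *Gmnc* (SD, n = 6), and no UMI was counted in the 146 cells of Multiciliated4. Of all *Gmnc* UMIs, 51.1% were in secretory cells and 32.4% in multiciliated cells. Multiciliated cells as a whole were at 1.69 times the level outside them, compared with 66.6 times for *Mcidas* and 141 times for *Foxj1*. In thinned cells the gene was found in 12.9% of Multiciliated1, 5.70% of secretory and 1.56% of basal cells, and in 47.1%, 26.6% and 7.20% unthinned (median 32469, 32690 and 26312 UMIs).

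*Myb*, a transcription factor best known from dividing progenitors, followed *Foxj1* more than *Mcidas*. It ranged from 407 to 603 CPM in Multiciliated2, 80.5 to 123 CPM in Multiciliated3 and 12.0 to 36.0 CPM in Multiciliated1, and the first of these did not overlap the second, nor the second the third. Its highest level elsewhere was 14.7 CPM, in neuroendocrine cells. *Myb* was detected in 82.7% of thinned Multiciliated2 cells and 39.4% of thinned Multiciliated3 cells, against 1.54% of basal cells (99.3%, 85.2% and 6.14% unthinned). In GENCODE, exons of an antisense gene overlap *Myb*, *Trp73* and *Cdc20b* on the other strand, and the strand setting of the counting is not given in the sources used here.

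*E2f4*, the DNA-binding partner of the geminin-family coactivators, differed little between multiciliated and other cells. Multiciliated cells stood at 24.8 CPM and all other cells at 24.9 CPM. Within the multiciliated clusters Multiciliated2 was highest in 6 of 6 mice, from 29.7 to 35.0 CPM against 20.8 to 27.7 CPM in Multiciliated1, without overlap. The next cluster of all was Basal6, at 30.5 CPM, so Multiciliated2 was at 1.08 times the highest cluster outside. On CPM from thinned cells this lead was not kept: Multiciliated2 was at 26.1 CPM, Multiciliated1 at 26.0 CPM, Basal6 at 28.9 CPM and Basal5 at 29.5 CPM. *E2f4* was detected in 13.5% of thinned Multiciliated2 cells and 11.8% of thinned basal cells.

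*Trp73*, encoding the p53 relative p73, was at 22.2 ± 3.52 CPM in Multiciliated3 and 18.8 ± 3.77 CPM in Multiciliated2, against 3.73 ± 1.33 CPM in Multiciliated1 (SD, n = 6). The first 2 ranges, 16.1 to 25.1 and 15.9 to 25.4 CPM, overlapped, and on thinned cells Multiciliated2 came out first, so no order between the pair is given. Outside the multiciliated clusters the level was 0.19 CPM, and 96.0% of *Trp73* UMIs were in multiciliated cells. The gene has 2 RefSeq starts on chromosome 4, and counts at the 3′ end do not tell its isoforms apart. Both *Rfx2* and *Rfx3*, RFX factors that bind X-boxes of cilium genes, were highest in Multiciliated3. *Rfx2* ranged from 68.0 to 81.1 CPM there and from 38.1 to 48.0 CPM in Multiciliated2, and *Rfx3* from 83.0 to 106 CPM and from 33.9 to 49.9 CPM, without overlap in either gene. Outside, *Rfx3* was highest in neuroendocrine cells, at 34.3 ± 23.1 CPM (SD, n = 3), and *Rfx2* in the same cells, at 5.46 CPM. In thinned Multiciliated3 cells *Rfx2* was detected in 30.3% and *Rfx3* in 37.3%, against 1.92% and 1.77% of basal cells (80.6%, 87.5%, 10.3% and 8.93% unthinned).

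The 10 genes overlapped most within single cells of Multiciliated2. Thinned cells there held a UMI of 3.67 of the 10 genes on average, against 2.18 in Multiciliated3, 1.17 in Multiciliated4 and 0.89 in Multiciliated1. The mean was 0.16 to 0.25 in the basal and secretory clusters. At least 5 of the 10 genes were detected in 27.3% of Multiciliated2 cells and 2.62% of Multiciliated3 cells.

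Across the 15 clusters with at least 100 cells, the regulators fell beside different genes. By Pearson correlation of log2(CPM + 10), the genes most like *Mcidas* among 9548 with at least 20 CPM in a cluster were *4930444F02Rik*, *Plvap*, *Foxn4*, *Shisa8* and *1700097N02Rik*, with r of 0.996 to 0.999. *Foxn4* is another transcription factor of the early program, at 32.4 CPM in Multiciliated2. Those most like *Foxj1* were *Lrrc23*, *Zmynd10*, *Cep83*, *1700003E16Rik* and *Spice1*, with r of 0.988 to 0.997. *Zmynd10* encodes a dynein assembly factor and *Lrrc23* a radial spoke protein. *Mcidas* and *Cdc20b* correlated with r = 0.997 and *Mcidas* and *Ccno* with r = 0.989, whereas *Mcidas* and *Gmnc* were at 0.01. The points are clusters that share libraries and were made from these genes, and 1 cluster sets the *Mcidas* pattern.

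The genes these factors act with followed the same division. Highest levels in this paragraph are among the 15 clusters with at least 100 cells, which leaves out the 28 ionocytes. Of 12 genes of deuterosomes and centriole amplification, 10 were highest in Multiciliated2. *Deup1*, which builds the deuterosome, was at 364 CPM there and 14.1 CPM in Multiciliated3, and *Plk4*, the kinase that starts centriole duplication, at 225 and 4.94 CPM. Of 16 motile cilium genes, 8 were highest in Multiciliated3, 7 in Multiciliated4 and 1 in Multiciliated2. *Dnah5*, an outer arm dynein heavy chain, was at 663 CPM in Multiciliated3 and 142 CPM in Multiciliated2. Of 14 other regulators, 4 peaked in Multiciliated2 (*Foxn4*, *Rfx4*, *Ccna1* and *Cdk1*, of which *Rfx4* was at only 0.085 CPM and had no UMI elsewhere) and 2 in Multiciliated3 (*E2f5* and *Rfx1*), while 5 peaked in the proliferating cluster Basal6, *Gmnn* among them. *Cdk1*, the mitotic kinase, reached 279 CPM in Multiciliated2. All 5 proliferation genes peaked in Basal6, yet *Top2a* reached 185 CPM in Multiciliated2, where *Mki67* was at 8.06 CPM. Of 10 Notch pathway genes only *Hes6* was highest in a multiciliated cluster (Multiciliated3, 570 CPM).

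The second question was whether the regulators differed between *MIS/MIS* and *WT/WT* cells. UMI counts were summed per mouse over the 4 multiciliated clusters and compared between 3 and 3 mice with limma-voom, with Benjamini-Hochberg adjustment over 14206 genes. All 10 regulators passed the filter on low counts and none passed the threshold of 0.05. Over all genes 0.00704% passed, which is 1 gene, and 614 had an unadjusted p under 0.05. In sums over a cluster group, fewer cells of a stage and less RNA per cell cannot be told apart.

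**Figure D2:**
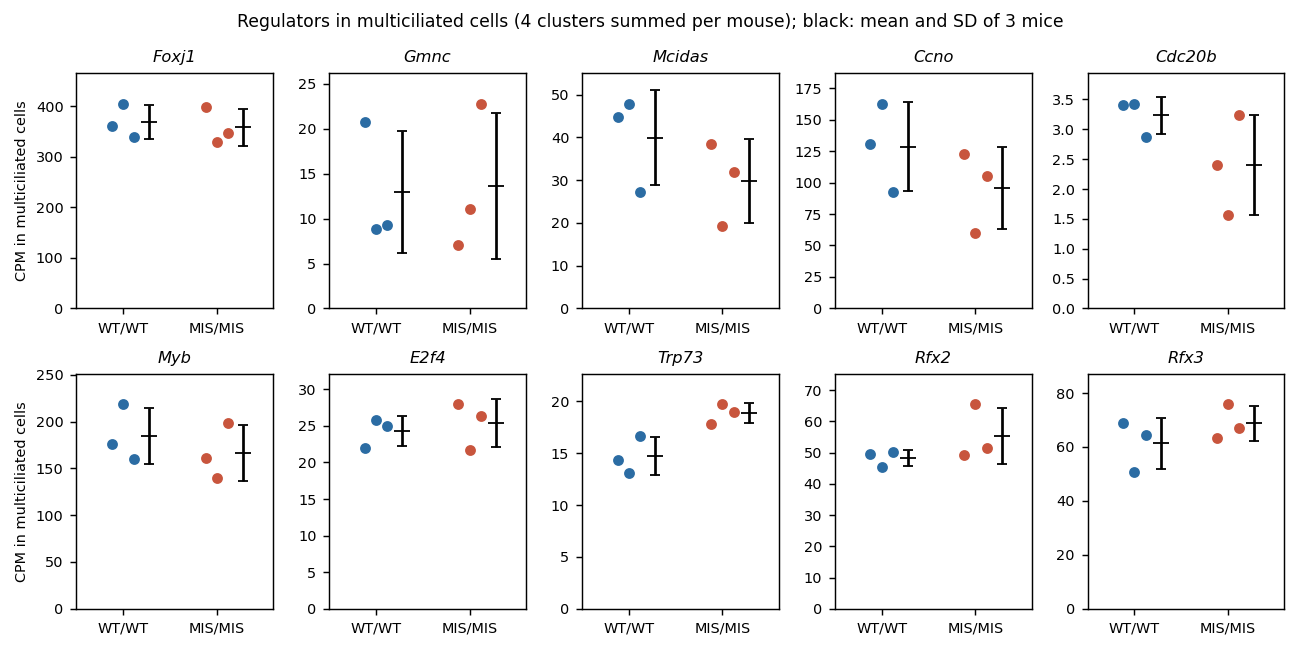
CPM of each regulator in multiciliated cells, 4 clusters summed, with 1 point per mouse (blue *WT/WT*, red *MIS/MIS*), each axis from 0; black marks give the mean and SD of 3 mice. Only *Trp73* shows no overlap between the genotypes, from 13.1 to 16.7 CPM against 17.9 to 19.7 CPM.

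*Foxj1* was at 361, 405 and 340 CPM in *WT/WT* mice and 398, 330 and 346 CPM in *MIS/MIS* mice. The genotypes overlapped, and the log2 fold change was -0.06 ± 0.11 (SE), with a 95% interval from -0.31 to 0.18 and an adjusted p of 0.932 by limma. Within Multiciliated3, the largest cluster, it was -0.01 ± 0.07.

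*Trp73* was at 14.3, 13.1 and 16.7 CPM in *WT/WT* mice and 17.9, 19.7 and 19.0 CPM in *MIS/MIS* mice. Every *MIS/MIS* mouse lay above every *WT/WT* mouse, which 10% of all tested genes did in either direction. The log2 fold change was 0.34 ± 0.11 with an unadjusted p of 0.0161 and an adjusted p of 0.896 by limma, so it did not pass. Multiciliated3, a part of these sums, held 63.8% of all *Trp73* UMIs, so its values are not a separate observation. They were 19.9, 16.1 and 22.7 against 24.2, 24.9 and 25.1 CPM, without overlap (9.61% of all genes there). The log2 fold change was 0.33 ± 0.12, with an adjusted p of 0.978 by limma. Some cell type markers differed in the same sums. The 4 basal markers together were at 869 to 1153 CPM in *WT/WT* and 546 to 718 CPM in *MIS/MIS* mice, and the 5 multiciliated markers at 3261 to 3396 and 3564 to 4371 CPM. Basal markers differed within Multiciliated3 (141 to 257 against 87.2 to 114 CPM) and Multiciliated2 (613 to 904 against 421 to 598 CPM) too. Most of the basal sum was *Krt15* (589 CPM in Multiciliated2, where *Krt5* was at 11.1 CPM), which was also at 3358 CPM in Secretory2. The 5 secretory markers overlapped between the genotypes in the multiciliated sums, at 7336 to 13136 CPM in *WT/WT* and 6207 to 13057 CPM in *MIS/MIS* mice. The part of these markers in the *Trp73* values was not tested.

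*Ccno*, *Mcidas* and *Cdc20b* had the most negative values over all multiciliated cells. *Ccno* was at 131, 162 and 92.2 CPM in *WT/WT* mice and 122, 59.7 and 105 CPM in *MIS/MIS* mice, a log2 fold change of -0.48 ± 0.29. *Mcidas* was at 44.8, 47.8 and 27.2 against 38.4, 19.2 and 31.9 CPM (-0.44 ± 0.29), and *Cdc20b* at 3.40, 3.42 and 2.87 against 2.41, 1.56 and 3.23 CPM (-0.40 ± 0.29). The genotypes overlapped for each gene, with an adjusted p of 0.896 by limma, and the lowest mouse was the same one, MT1306. Without MT1306 the values were -0.17 for *Ccno*, -0.19 for *Mcidas* and -0.17 for *Cdc20b*. Multiciliated2 made up 16.6%, 34.7% and 14.2% of the multiciliated cells of *WT/WT* mice and 21.3%, 8.45% and 15.9% of those of *MIS/MIS* mice, lowest in MT1306 and highest in WT2. The shares overlapped between the genotypes (21.8 ± 11.2% against 15.2 ± 6.44%, SD, exact permutation test p = 0.50, where 3 against 3 mice cannot give less than 0.1).

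Within Multiciliated2 the genotype difference of these genes was near 0. *Ccno* was at 550, 380 and 461 CPM in *WT/WT* and 417, 445 and 454 CPM in *MIS/MIS* mice, a log2 fold change of -0.07 ± 0.13. *Mcidas* was at 194, 114 and 141 against 135, 156 and 143 CPM (-0.02 ± 0.18, 95% interval -0.42 to 0.39), and *Cdc20b* was at 0.11 ± 0.30. In these cells MT1306 was no longer the lowest mouse for any of the 3 genes, and WT2 was. Of 10 regulators tested in Multiciliated2, 0 passed and 0 had an unadjusted p under 0.05 by limma, with 5 values above and 5 below 0 (0.00857% of 11674 genes passed). None was without overlap between the genotypes, where 7.77% of genes were. The lowest was *Rfx3* at -0.14 ± 0.15 and the highest *Trp73* at 0.21 ± 0.20.

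**Figure D3:**
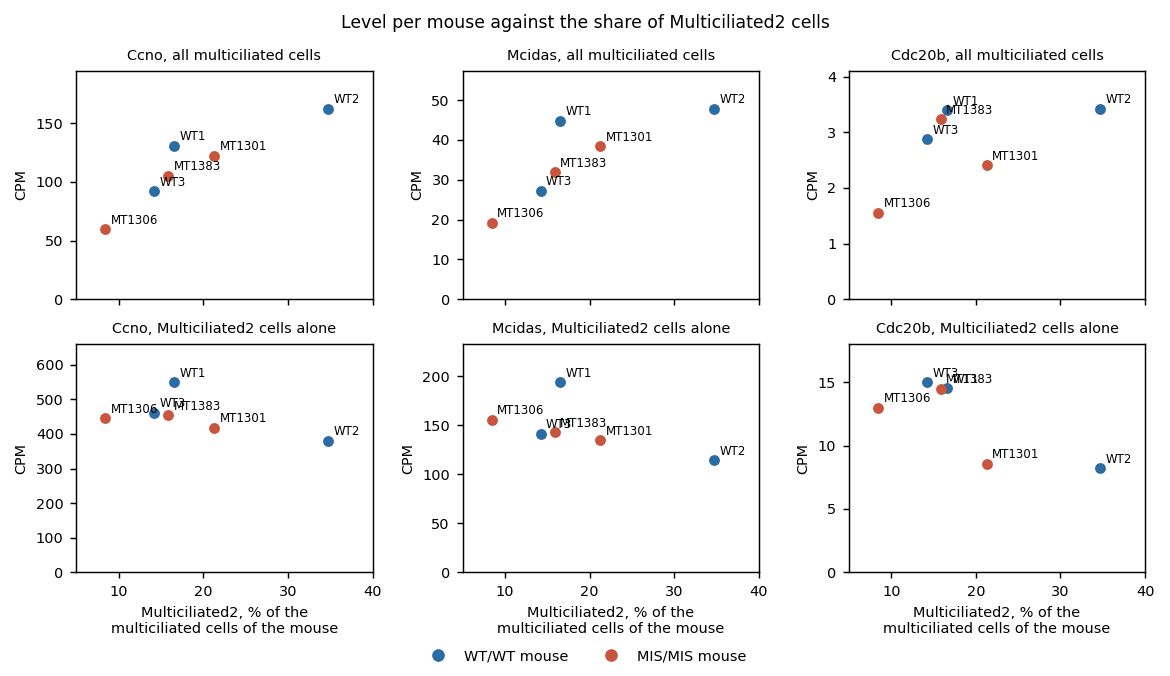
CPM of *Ccno*, *Mcidas* and *Cdc20b* per mouse against the share of Multiciliated2 among the multiciliated cells of that mouse, over all multiciliated cells (upper row) and in Multiciliated2 alone (lower row), each vertical axis from 0. MT1306, with 8.45% Multiciliated2 cells, is lowest in the upper row, and WT2, with 34.7%, is highest in the upper and lowest in the lower row.

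The remaining regulators overlapped between the genotypes in multiciliated cells. *Rfx2* was at 49.5, 45.3 and 50.1 against 49.2, 65.5 and 51.3 CPM, with MT1306 alone above the rest, and *Rfx3* at 68.8, 50.8 and 64.3 against 63.5, 75.9 and 66.9 CPM. Their log2 fold changes were 0.16 ± 0.12 and 0.16 ± 0.13. *Myb* was at -0.19 ± 0.15, *E2f4* at 0.03 ± 0.12 and *Gmnc* at 0.23 ± 0.49, and the 95% interval of each of the 5 genes included 0.

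In Multiciliated1, 8 regulators could be tested, all 8 had a value above 0 and 0 passed (0.00874% of 11446 genes passed), with a median log2 fold change of 0.31 against 0.01 over all genes. The 4 basal markers together, mostly *Krt15*, were at 2476 to 2977 CPM in this cluster in *WT/WT* and 1825 to 2395 CPM in *MIS/MIS* mice. The genotypes did not overlap, and the part of these markers in the values of the regulators was not tested. *Ccno* was low there, at 2.80, 4.19 and 3.87 CPM in *WT/WT* mice and 4.73, 4.78 and 9.14 CPM in *MIS/MIS* mice. The genotypes did not overlap, as for 7.82% of genes there, and the log2 fold change was 0.92 ± 0.36 with an adjusted p of 0.994 by limma. Without MT1383 it was 0.37. *Trp73* was at 0.81 ± 0.33 in these cells, with overlap between the mice. *Mcidas* and *Cdc20b* were removed by the filter on low counts in Multiciliated1 and Multiciliated3. In Multiciliated3, 0 of 8 regulators passed (0.0229% of 13096 genes), 7 were above and 1 below 0.

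In secretory cells, 0 of 8 regulators passed (0.00735% of 13610 genes). *Ccno* was at 2.64, 1.79 and 1.95 CPM in *WT/WT* and 2.89, 2.97 and 2.77 CPM in *MIS/MIS* mice, without overlap, as for 5.5% of genes, and the log2 fold change was 0.51 ± 0.17 with an unadjusted p of 0.0193 and an adjusted p of 1.00 by limma. The 5 multiciliated markers together were at 19.6 to 23.3 CPM in secretory cells of *WT/WT* and 21.4 to 46.0 CPM in those of *MIS/MIS* mice, and their part in the *Ccno* values was not tested. In basal cells 0 of 9 regulators passed by limma, where 0% of 14615 genes did and 334 had an unadjusted p under 0.05. All 9 overlapped between the genotypes, while 7.96% of genes did not. *Ccno* was at 0.63 ± 0.47 there, and at 0.16 without MT1383.

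**Figure D4:**
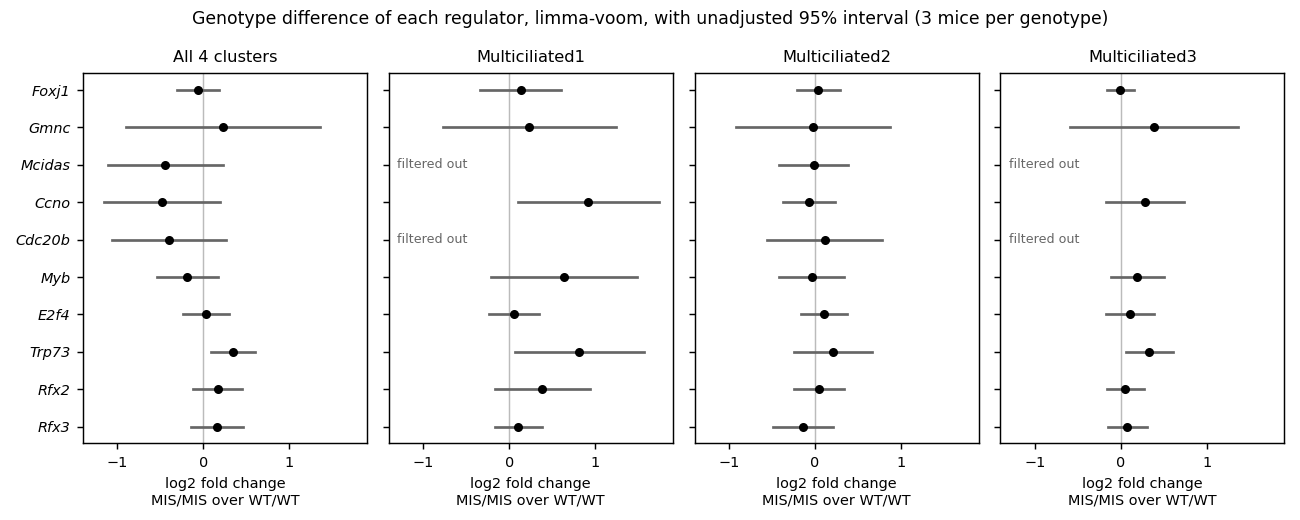
Log2 fold change of each regulator, *MIS/MIS* over *WT/WT*, with its unadjusted 95% interval by limma-voom over 3 mice per genotype, in all 4 multiciliated clusters summed and in each of the 3 larger ones. *Ccno* lies at -0.48 over all clusters, at 0.92 in Multiciliated1 (0.37 without MT1383) and at -0.07 in Multiciliated2; no point passed the adjusted threshold.

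Whether a genotype difference itself differed between kinds of cells was tested with an interaction term and a term per mouse. No regulator and no other gene passed between multiciliated and secretory cells (0% of 15134 genes), multiciliated and basal cells (0% of 16008) or Multiciliated2 and Multiciliated3 (0% of 13237) by limma. The lowest p was that of *Ccno*, whose difference in multiciliated cells was 0.99 lower on the log2 scale than that in secretory cells (-0.99 ± 0.31, unadjusted p = 0.00989, adjusted p = 0.992 by limma). *Ccno* was at -1.20 ± 0.53 between multiciliated and basal cells (unadjusted p = 0.0528, adjusted p = 1.00 by limma). The largest value in size was that of *Mcidas*, at -1.50 ± 0.63 between Multiciliated2 and Multiciliated3, a comparison with a cluster where it averaged 0.52 CPM (unadjusted p = 0.0350, adjusted p = 1.00 by limma). No other regulator had an unadjusted p under 0.05 in the 3 interaction tests.

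*Gmnc* varied more between mice than between genotypes. In Multiciliated1 it was at 43.2, 15.3 and 19.3 CPM in *WT/WT* mice and 15.6, 19.6 and 42.6 CPM in *MIS/MIS* mice. WT1 and MT1383 stood above the other 4 mice there, and they did so again in Multiciliated3 (15.3 and 16.0 against 5.92 to 10.47 CPM), secretory cells (19.4 and 20.1 against 9.49 to 14.3 CPM) and basal cells (3.81 and 5.42 against 2.47 to 3.68 CPM). In Multiciliated2 they did not: MT1383 was highest at 8.81 CPM, and WT2 followed at 6.32 CPM. The 5 secretory markers together were at 13136 CPM in multiciliated cells of WT1 and 13057 CPM in those of MT1383, but also at 12898 CPM in WT3, where *Gmnc* was at 9.31 CPM, against 6207 to 7336 CPM in the other 3 mice. Their part in the *Gmnc* values was not tested.

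**Figure D5:**
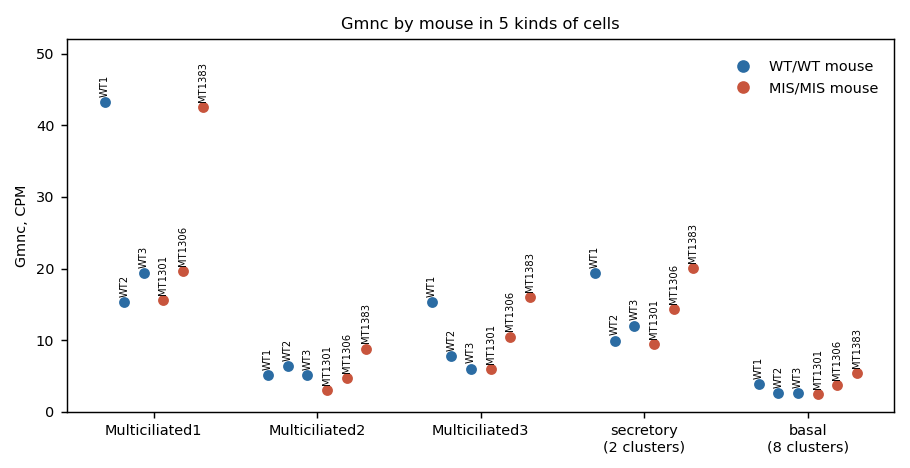
*Gmnc* in CPM for each of the 6 mice (blue *WT/WT*, red *MIS/MIS*) in 3 multiciliated clusters, secretory cells and basal cells. WT1 and MT1383, 1 mouse of each genotype, are the 2 highest points in Multiciliated1, Multiciliated3, secretory and basal cells.

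The share of multiciliated cells with a UMI of each regulator, in cells thinned to 5000 UMIs, differed by -3.89 percentage points (*Ccno*) to 2.77 points (*Rfx2*) between *MIS/MIS* and *WT/WT* mice. For *Foxj1* the shares were 64.5%, 70.1% and 66.0% in *WT/WT* and 70.9%, 72.5% and 63.9% in *MIS/MIS* mice, which overlapped. The lowest p of the 10 was 0.2 (*Rfx2* and *Cdc20b*, two-sided exact permutation test, adjusted p = 0.667), and 0.1 was the least that 3 against 3 mice could give.

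The lists around the regulators gave no calls either. In multiciliated cells 0 of 13 other regulators tested, 0 of 9 Notch genes, 0 of 12 deuterosome and centriole genes, 0 of 16 motile cilium genes and 0 of 5 proliferation genes passed by limma, and 1 of them all, a motile cilium gene, had an unadjusted p under 0.05. Of the deuterosome genes, 9 of 12 had a value below 0, with a median of -0.13 on the log2 scale against 0.01 over all genes, and *Plk4* (-0.48 ± 0.29) and *Deup1* (-0.38 ± 0.28) had the most negative values. Within Multiciliated2 the same 12 genes had 9 values above 0 and a median of 0.10. Of the motile cilium genes, 15 of 16 had a value above 0 in multiciliated cells, with a median of 0.19, among them *Dnah5* (0.30 ± 0.14) and *Tekt2*, a filament gene of the axoneme (0.58 ± 0.30). They had a median of 0.23 in Multiciliated1, 0.16 in Multiciliated2 and 0.05 in Multiciliated3, and also of 0.37 in secretory cells (12 of 13 tested above 0) and 0.36 in basal cells (14 of 14). Levels there were low, from 0.17 (*Tekt2*) to 14.5 CPM (*Rsph9*) in Secretory1 and from 0.12 to 8.21 CPM (the same genes) in Basal1. Multiciliated cells made up 11.7%, 12.0% and 16.2% of the cells of *WT/WT* mice and 16.2%, 24.4% and 32.1% of those of *MIS/MIS* mice. The part of this share in the secretory and basal values was not tested.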

How the data were processed

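Per the labels, poly-A RNA of cultured tracheal cells was captured with the 10x single-cell 3′ kit. The submitters' processing notes name Cell Ranger 7.1.0 and build mm10, while the methods name an older version. The authors kept cells by gene number and mitochondrial share, treated cells over 7500 genes as doublets, clustered with Seurat and named the clusters by hand. The deposited table holds raw UMI counts of 20483 genes in 23871 cells, and the deposited cell table gives mouse and cluster. Every cell's sum equalled the deposited total. Cells over 7500 genes were still present and were kept, and no doublet caller was run. WT columns were matched to mice by title. The mutant columns carry animal numbers that no label holds, so they were used as replicates of their group.

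The deposited files separate columns by a slash and a letter in place of a tab. The raw counts were read in full, but a check of their unit could not read this format. The plan then called for limma-voom (limma 3.58.1, R 4.3.3) on sums per mouse, in place of the planned count test. TMM factors were used. Genes were kept when at least 3 libraries reached the CPM that 10 counts give at median library size and the total was at least 15. The lowest sum per mouse was 2774230 UMIs, in Multiciliated2, and counting error is one part of the spread between mice. Shares were compared by a two-sided exact permutation test. Thinning drew 5000 UMIs per cell, which left out 0 cells. The fit was tested on simulated sums with known changes. Positions are from GENCODE M21 and sequences from RefSeq (GRCm38.p6). Named genes were the 10 regulators and lists by role, with up to 4 examples each by level and by size of change, plus *Gpx8*, *Dhx29*, *Mtrex* and *Esm1* as neighbours. The members and lists were chosen with earlier results of these data known. Each mouse is 1 culture and 1 library.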

Additional observations from a re-analysis of the deposited data

How the results depend on the processing

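No regulator passed the threshold in 593 refits with another setting or without 1 mouse, where the lowest adjusted p was 0.286 by limma, and 64 of the refits changed sign. The settings were other scaling factors (RLE), no filter on low counts, limma-trend (chosen after seeing the data), the cell filters stated in the methods, thinned cells, and multiciliated cells without Multiciliated1 or Multiciliated4. The planned count tools were not run. No paired analysis was possible because the mutant columns carry no replicate number of the labels.

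Thinning moved counts of genes: 1 gene was lower in multiciliated cells, 0 were higher in Multiciliated1 and Multiciliated2, 1 was lower in Multiciliated2 and 3 were lower in Multiciliated3. It also turned *E2f4* in Multiciliated1 (-0.14), *Mcidas* (0.087) and *Myb* (0.038) in Multiciliated2, *Foxj1* in Multiciliated3 (0.040) and *Gmnc* in basal cells (-0.021). Limma-trend turned *Gmnc* in multiciliated cells (-0.0044) and Multiciliated1 (-0.022) and *Cdc20b* in Multiciliated2 (-0.070), and no filter turned *Foxj1* in Multiciliated3 (0.0012). By level, thinning moved *Ccno* in Multiciliated1 to 7.14 CPM and *E2f4* in Multiciliated2 to 26.1 CPM. Unthinned, the share for *E2f4* differed by -3.25 points. The causes were not tested.

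Without 1 mouse, log2 fold changes in multiciliated cells ran from -0.15 to 0.0016 for *Foxj1*, -0.38 (without MT1383) to 0.57 (without WT1) for *Gmnc* and -0.036 to 0.12 for *E2f4*. *Gmnc* ran from -0.17 to 0.44 in secretory and -0.079 to 0.55 in basal cells. In Multiciliated1 the ranges were -0.050 to 0.43 for *Foxj1*, -0.41 to 0.64 for *Gmnc* and -0.0096 to 0.10 for *E2f4*. In Multiciliated2 they were -0.065 to 0.16 for *Foxj1*, -0.24 to 0.19 for *Mcidas*, -0.71 to 0.39 for *Gmnc*, -0.23 to 0.073 for *Ccno*, -0.21 to 0.12 for *Myb*, -0.048 to 0.32 for *Trp73*, -0.074 to 0.12 for *Rfx2* and -0.34 to 0.34 for *Cdc20b*. In Multiciliated3 they were -0.054 to 0.025 for *Foxj1*, -0.033 to 0.73 for *Gmnc*, -0.013 to 0.12 for *Rfx2* and -0.0067 to 0.17 for *Rfx3*. Genes called higher went to 0 in secretory cells without any 1 mouse and ranged from 0 (without WT1) to 2 in Multiciliated2, and genes called lower from 0 (without WT1) to 2 in Multiciliated3.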

Other observations

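*Rfx3* had its highest level outside the multiciliated clusters in neuroendocrine cells. The 3 mice with at least 10 such cells averaged 34.3 CPM and ranged from 13.1 to 58.9 CPM. All 163 cells together, of which 108 came from MT1383, were at 45.6 CPM. After thinning, a UMI was found in 22.1% of the 163 cells, against 1.77% of thinned basal cells. *Foxj1*, at 2.22 CPM, and *Trp73*, with no UMI, were low in that cluster.

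*Myb* was found in 19.98% of Basal6 cells, the cluster where all 5 proliferation genes peaked, and in 6.14% of all basal cells. Thinned to 5000 UMIs per cell the shares were 3.80% and 1.54%.

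*Gpx8* had its lowest level of the 15 clusters with at least 100 cells in Multiciliated2, at 16.3 CPM, and was between 62.0 and 108 CPM in the basal, secretory and other multiciliated clusters. Only neuroendocrine cells, at 19.1 CPM, were similar.

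One gene passed the genotype threshold in multiciliated cells by limma. It was *Wdfy1*, which encodes an adaptor protein of endosomes, at 25.2, 31.7 and 28.6 CPM in *WT/WT* and 100, 107 and 111 CPM in *MIS/MIS* mice. *Wdfy1* also passed in Multiciliated1, Multiciliated2 and Multiciliated3 alone. In secretory cells it passed too, at 24.2, 25.3 and 19.5 against 66.1, 74.8 and 81.0 CPM (log2 fold change 1.68), though not without any 1 mouse. *Sult1d1* and *Fank1* passed as well in Multiciliated3, at 0.88 and -0.91 on the log2 scale.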
